A study of Mus musculus with 20 samples.

Results

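The utricles of ovariectomized mice that carried a raloxifene pellet (OVX + RAL) were compared with the utricles of mice that kept their ovaries (sham + v). The comparison used 10 of the 20 libraries of the series, 5 in each group, chosen by their labels: libraries 1 to 5 are sham + v and libraries 16 to 20 are OVX + RAL. The animals were females of the strain C57BL/6J. Their operation took place at 8 weeks of age and the utricles were taken 4 weeks after it. Sham + v mice went through surgery without losing their ovaries and received a pellet with vehicle alone. In the OVX + RAL group the ovaries were removed and the pellet was made to release 2.4 mg of raloxifene over 60 days. The series also holds 5 ovariectomized libraries with a vehicle pellet (OVX + v) and 5 with a pellet of 50 µg of estradiol over the same 60 days (OVX + E2), whose values are given for reference. The groups compared differ in both the operation and the drug, and the part of each in a difference cannot be told apart. How many mice made up a library is not given in the sources used here, so that p-values measure the spread between these libraries, which may be technical in part.

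The utricle is a gravity sensor of the inner ear. Its sensory epithelium holds hair cells and supporting cells beneath a gelatinous membrane loaded with otoconia, crystals of calcium carbonate, and it is served by dark cells that secrete potassium, by nerve fibres with their Schwann cells, by melanocytes and by fibrocytes. Estrogen acts mainly through the receptors encoded by *Esr1* and *Esr2*. Raloxifene is a selective estrogen receptor modulator, which binds the same receptors and acts like estrogen in some tissues, such as bone, and against it in others, such as the uterus. The question was how far the transcripts of the treated, ovariectomized utricle differed from those of the intact one.

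The library totals were 1507719 to 2053255 counts for sham + v and 1702313 to 2081747 for OVX + RAL. A gene was tested if it had at least 10 counts in each of the 10 libraries, which 3475 of the 14790 genes with any count did. These genes held between 79.7% and 82.1% of the counts of a library. Levels relative to the library total (CPM, counts scaled to a common total) were calculated from the library totals. Replicates resembled each other loosely: the correlation of log2(CPM + 1) over the tested genes was 0.685 to 0.709 between sham + v libraries, 0.697 to 0.776 between OVX + RAL libraries and 0.659 to 0.759 across the groups. These correlations are over genes and describe the libraries. The highest across the groups, 0.759, was that of sham + v 1 with OVX + RAL 16, and these libraries stood apart from the others. The summed level of *Ptgds*, *Apod*, *Ttr* and 18 further genes of lipophilic carriers and meningeal or choroid tissue was 112092 CPM in sham + v 1 and 113092 CPM in OVX + RAL 16, against 52008 to 74788 CPM in the other 8. Mitochondrial genes took 4.80% and 6.42% of their counts, against 9.31% to 12.3% in the others. Results that rest on either library are given without it where that changes them.

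Across the 3475 tested genes, 1 passed an adjusted p of 0.05 (0.0288% of them, edgeR quasi-likelihood test with Benjamini-Hochberg adjustment). It was *mt-Nd6*, a subunit of respiratory complex I encoded by the mitochondrial genome, and it was lower in the OVX + RAL group. No gene passed in the other direction, and 196 genes (5.64%) had an unadjusted p under 0.05, 86 higher (2.47%) and 110 lower (3.17%). The 5.64% lies near the share that a threshold of 0.05 would give without any difference between the groups. DESeq2 called 0 genes, with 201 under an unadjusted 0.05, and limma called 1, with 182. The size of the log2 fold change was above 1 in 154 genes (4.43%) and above 2 in 2 genes (0.0576%). In data simulated from these libraries, 200 of the 3475 genes were changed in a single run for each size of change. The edgeR test recovered 9.5% of genes changed by 1 on the log2 scale, with 1 false call. It recovered 82.5% of those changed by 2 (7 false calls) and 99.5% of those changed by 3 (17 false calls). Differences near 1 were thus mostly not recovered in this setting with 5 libraries a group. The rates depend on how many genes change, so they need not hold for the data.

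**Figure D1:**
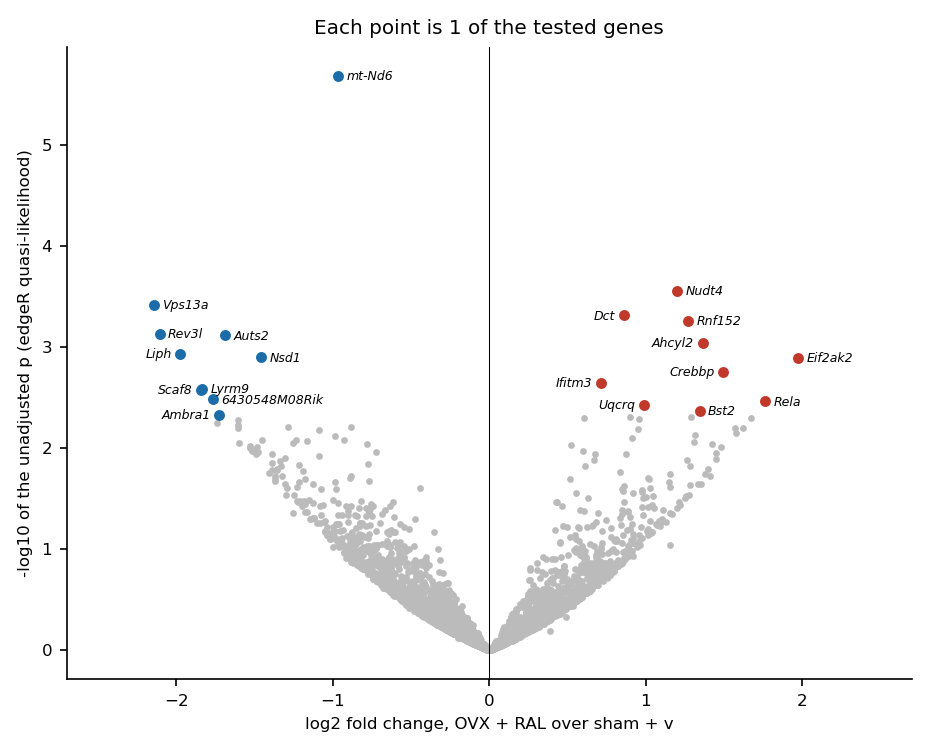
Log2 fold change of OVX + RAL over sham + v (horizontal axis) against −log10 of the unadjusted p of the edgeR test (vertical axis) for the 3475 tested genes, 1 point each. Coloured points are the 10 genes of smallest p in each direction, and *mt-Nd6*, at a log2 fold change of −0.97, lies above all others.

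In 32 genes (0.921%) the libraries of the groups did not overlap in CPM. In 13 of them (0.374%) every OVX + RAL library was above every sham + v library, and in 19 (0.547%) every one was below. With 5 libraries a group, an exact permutation test of such a gene gives 0.00794, the smallest p that the 252 groupings allow. Without any difference between the groups, about that share of genes would still not overlap, and 0.921% lies near it. A lack of overlap in a single gene is therefore given as a description. None of the 32 other than *mt-Nd6* passed the adjusted p of the fit. The 13 higher genes were *Hspa5*, *Ndufa8*, *Rpl34*, *Rab2a*, *Mrpl20*, *Ahcyl2*, *Lamtor1*, *Fxyd6*, *Ugp2*, *Uqcrq*, *Spop*, *Ckb* and *Sgms1*. Among the 19 lower genes were *Surf4*, *Gsn*, *Pfn2*, *Sfpq*, *Atp2b2*, *Hnrnpul1*, *6430548M08Rik*, *Tcf25*, *Rev3l*, *Anxa6*, *Cpd*, *Nufip2*, *Acp1*, *Ptgr2*, *Rala*, *Cdc5l*, *Vps13a* and *mt-Nd6*.

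The mitochondrial genome encodes 13 proteins of the respiratory chain, 12 on one strand and *mt-Nd6* alone on the other. *mt-Nd6* (MT, 13552 to 14070, minus strand) lies tail to tail with *mt-Nd5* (MT, 11742 to 13565, plus strand), which encodes another complex I subunit, and their annotated ends share 14 bases. Whether counting used the strand is not given in the sources used here, so reads from the stretch they share, and transcripts antisense to either gene, cannot be told apart. The last 60 bases of each gene as annotated in GRCm39 are shown, 5′ to 3′ on the gene's own strand. Where the transcripts end, and so where the reads of this 3′ assay lie, is not given in the sources used here. The capitals mark the shared bases.
mt-Nd5, chrM:13506-13565, plus strand: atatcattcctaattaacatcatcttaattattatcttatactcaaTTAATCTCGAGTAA
mt-Nd6, chrM:13552-13611, minus strand: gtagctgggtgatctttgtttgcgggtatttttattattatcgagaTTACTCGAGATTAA

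The level of *mt-Nd6* was 1802, 3416, 3069, 3128 and 2763 CPM in sham + v libraries 1 to 5. It was 926, 1194, 1689, 1663 and 1784 CPM in OVX + RAL libraries 16 to 20. Every OVX + RAL library was below every sham + v library, though sham + v 1 stood only slightly above OVX + RAL 20. The mean fell from 2836 ± 623 (SD, n = 5) to 1451 ± 372 CPM (SD, n = 5), a log2 fold change of −0.97 ± 0.20 (SE) with an adjusted p of 0.00724 in edgeR. The call was lost in the non-robust edgeR fit (adjusted p = 0.0961), the legacy quasi-likelihood fit (adjusted p = 0.0640) and DESeq2 (adjusted p = 0.131). It was also lost when sham + v 2 (adjusted p = 0.171), sham + v 4 (adjusted p = 0.103) or OVX + RAL 17 (adjusted p = 0.188) was left out of the edgeR fit, while the log2 fold change lay between −1.09 and −0.84 whichever library was left out.

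Because the mitochondrial share of a library varied, each mitochondrial gene was also given as a share of the mitochondrial counts, a measure chosen after the values were seen. The share of *mt-Nd6* was 3.75%, 3.01%, 2.50%, 2.92% and 2.79% in sham + v libraries 1 to 5, and 1.28% to 1.73% in the 5 OVX + RAL libraries. The groups did not overlap on this scale. The difference of means was −1.46 percentage points, with an exact two-sided permutation p of 0.00794 and 0.0344 after Benjamini-Hochberg adjustment over the 13 genes. *mt-Nd6* had already been picked from these same libraries as the gene of smallest p, so these p-values are no separate support. The adjusted value rests on 3 of the 13 genes sharing the smallest permutation p. Shares of *mt-Nd5* and *mt-Nd2*, a further complex I subunit, also did not overlap. That of *mt-Nd5* was 4.07% to 4.95% for sham + v and 1.24% to 3.28% for OVX + RAL, a difference of −2.06 percentage points. For *mt-Nd2* the ranges were 10.3% to 12.7% and 4.88% to 9.81%, a difference of −3.18 percentage points. Each had the same exact permutation p as *mt-Nd6*, raw and adjusted. OVX + RAL 16, one of the libraries that stood apart, was the lowest for both.

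On the CPM scale *mt-Nd5* had a log2 fold change of −0.90 ± 0.38 (SE) and *mt-Nd2* of −0.46 ± 0.29 (SE), with adjusted p of 0.858 and 0.909 in edgeR. Without sham + v 1 *mt-Nd5* was called (−1.09, adjusted p = 8.11e-06), and without OVX + RAL 20 also (−1.01, adjusted p = 0.0200). The other 10 mitochondrial genes overlapped between the groups and none passed the adjusted permutation test. *mt-Nd4*, a complex I gene with the largest share of the 13, took 16.5% ± 1.01 (SD, n = 5) of the mitochondrial counts in the sham + v group and 18.3% ± 3.06 (SD, n = 5) in the OVX + RAL group. The total share of mitochondrial genes in a library was 9.82% ± 2.93 (SD, n = 5) and 9.41% ± 1.95 (SD, n = 5), with an exact permutation p of 0.770. In the libraries outside the comparison, the share of *mt-Nd6* was 1.74% to 2.86% in the OVX + v group and 1.70% to 2.25% in the OVX + E2 group. Library numbers run with the groups, so any order of handling that followed the numbers cannot be told apart from the treatment.

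**Figure D2:**
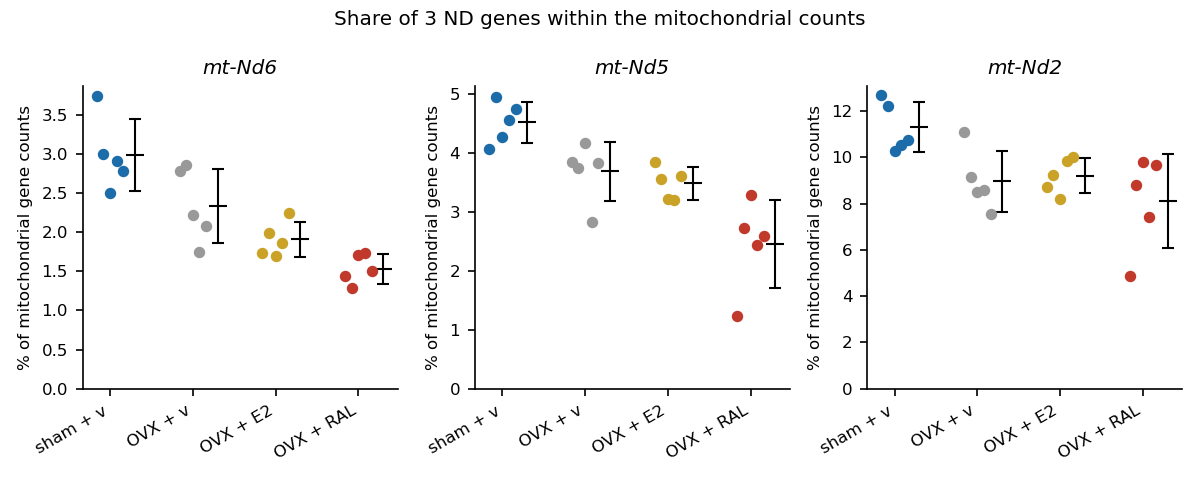
Share of *mt-Nd6*, *mt-Nd5* and *mt-Nd2* in the mitochondrial counts (vertical axes, percent) in the 4 groups of 5 libraries; points are libraries and bars the mean ± SD. For *mt-Nd6* the sham + v libraries lie at 2.50% to 3.75% and the OVX + RAL libraries at 1.28% to 1.73%.

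Among genes higher in the OVX + RAL group, the 10 with the smallest p had adjusted p between 0.382 and 0.636 in edgeR, and none was called. The first was *Nudt4*, a phosphatase of inositol pyrophosphates. Its level was 225, 189, 293, 186 and 150 CPM in the sham + v libraries and 862, 785, 297, 182 and 275 CPM in the OVX + RAL libraries, so that libraries 16 and 17 were high and the other 3 lay within or near the sham + v range. It was called without OVX + RAL 19 (log2 fold change 1.41, adjusted p = 0.0254 in edgeR) or without OVX + RAL 20 (1.35, adjusted p = 0.0264). *Dct*, which encodes dopachrome tautomerase of melanin synthesis, had a mean of 586 ± 258 (SD, n = 5) and 1067 ± 365 CPM (SD, n = 5). *Dct* was the only melanocyte gene of the 3 tested with an unadjusted p under 0.05. Without sham + v 1, the highest sham + v library, the log2 fold change of *Dct* was 1.13 with an adjusted p of 0.00412 in edgeR, against 0.86 ± 0.24 (SE) and 0.382 with all libraries.

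*Rnf152*, a ubiquitin ligase of the lysosome, had 128 ± 68.8 and 307 ± 119 CPM (SD, n = 5 each). *Ahcyl2*, a relative of the enzyme that hydrolyses S-adenosylhomocysteine, had 39.9 to 139 CPM for sham + v and 167 to 380 CPM for OVX + RAL, without overlap. So did *Uqcrq*, a nuclear-encoded subunit of respiratory complex III, with 101 to 208 and 246 to 428 CPM. *Crebbp*, which encodes the acetyltransferase CBP, a coactivator of nuclear receptors, had 61.0 ± 41.9 and 171 ± 70.4 CPM (SD, n = 5 each). *Rela*, the p65 subunit of NF-kappaB, had 24.5 ± 11.6 and 83.5 ± 52.4 CPM (SD, n = 5 each), and OVX + RAL 17 and 19 lay within the sham + v range.

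Of the 10 genes with the smallest p on the lower side, 9 had adjusted p between 0.382 and 0.636 in edgeR and were not called. *Vps13a*, a lipid transfer protein at membrane contacts, was at 122, 106, 88.3, 54.2 and 146 CPM in the sham + v libraries and at 7.20, 23.7, 49.3, 9.44 and 28.8 CPM in the OVX + RAL libraries. All of the latter were below all of the former, with a log2 fold change of −2.14 ± 0.59 (SE). *Rev3l*, the catalytic subunit of DNA polymerase zeta, had 71.2 ± 45.8 and 16.8 ± 10.2 CPM (SD, n = 5 each), also without overlap. These are low counts, since 10 counts make 4.80 to 6.63 CPM. *Auts2* had 182 ± 141 and 54.6 ± 33.5 CPM (SD, n = 5 each), and was called only without sham + v 1 (log2 fold change −1.96, adjusted p = 0.0269 in edgeR). *Liph*, a lipase that makes lysophosphatidic acid, had 83.8 ± 30.5 and 22.2 ± 20.6 CPM (SD, n = 5 each), and *Nsd1*, a histone methyltransferase, had means of 197 and 70.1 CPM, a log2 fold change of −1.46 ± 0.44 (SE). The others were *Lyrm9*, *Scaf8*, *6430548M08Rik* and *Ambra1*, with log2 fold changes from −1.84 to −1.72.

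**Figure D3:**
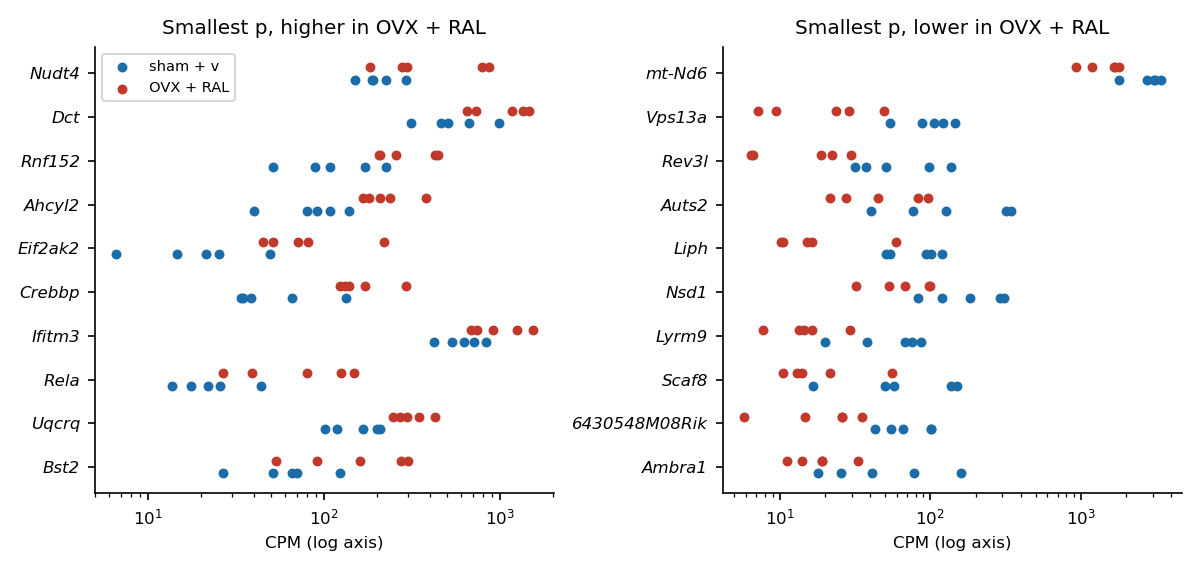
CPM (horizontal, log axis) in each sham + v library (blue) and OVX + RAL library (red) for the 10 genes with the smallest p in each direction. The colours are separate in 6 of the 20 genes: *Ahcyl2*, *Uqcrq*, *mt-Nd6*, *Vps13a*, *Rev3l* and *6430548M08Rik*.

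The 10 genes with the smallest p on the lower side had a median span of 96.2 kb in the annotation, and 5 of them spanned over 100 kb, as did 2 of the 10 on the higher side. The median was 23.6 kb for the 10 on the higher side and 24.7 kb for all tested genes. For all genes with an unadjusted p under 0.05 the medians were 30.3 kb on the lower and 16.5 kb on the higher side, and 18.2% and 10.5% spanned over 100 kb, against 14.3% of all tested genes. Genes spanning over 100 kb took 7.87% to 9.99% of the counts of a sham + v library and 7.18% to 9.49% of an OVX + RAL library. The part of gene span in these differences was not tested.

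Levels in the remaining groups are given for the 20 lead genes as a description. For 19 of them the OVX + v mean lay between the other 2 means, and for 15 the OVX + E2 mean did so. The leads were chosen for their distance between the outer groups, which favours means that lie between. *Vps13a*, for example, averaged 73.0 ± 44.2 CPM under OVX + v and 91.0 ± 58.8 CPM under OVX + E2 (SD, n = 5 each).

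Interferon-stimulated genes are switched on by interferon signalling and act against viruses. Of the 44 listed genes in the table, 6 were tested and all 6 had a log2 fold change above 0, with a median of 0.71 against −0.05 over all tested genes. Over all tested genes 45.6% were above 0 and 54.4% below. None of the 6 was called and 2 had an unadjusted p under 0.05, both higher, against 2.47% of all tested genes. *Ifitm3*, which blocks the entry of viruses, was at 707, 834, 422, 529 and 624 CPM in the sham + v libraries and at 742, 1533, 1239, 914 and 685 CPM in the OVX + RAL libraries. *Bst2*, which tethers budding virus to the cell, was at 65.3, 123, 69.9, 50.9 and 26.5 CPM and at 53.0, 301, 271, 159 and 91.3 CPM. The groups overlapped in both, and OVX + RAL 17 was the highest library. *Ifitm3* had a log2 fold change of 0.71 ± 0.23 (SE) and an adjusted p of 0.607, and *Bst2* of 1.34 ± 0.46 (SE) and 0.636, in edgeR. *Eif2ak2*, the antiviral kinase PKR, was not on the list and had 6.52 to 49.3 CPM in the sham + v and 45.2 to 218 CPM in the OVX + RAL libraries.

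*Ifit3* (chromosome 19, 34560931 to 34566131, plus strand, GRCm39), whose product binds viral RNA complexes with its relatives, fell under the filter because sham + v 5 had 8 counts. Its counts were 90, 48, 24, 212 and 8 in the sham + v and 169, 1427, 222, 376 and 202 in the OVX + RAL libraries. Only sham + v 4 reached the OVX + RAL range. When genes with 10 counts summed over the libraries were tested instead, 5 of 13883 genes were called (0.036%), and *Ifit3* was one, with a log2 fold change of 2.58 ± 0.46 (SE) and an adjusted p of 1.9e-04 in edgeR. Its exact permutation p on log2(CPM + 1) was 0.0238. The call rested on OVX + RAL 17: without that library the log2 fold change was 1.58 and the adjusted p 0.875 in edgeR. Reads of *Ifit3* and its near copy *Ifit3b* may be shared between them. *Dnase1* (log2 fold change 2.54, adjusted p = 1.64e-04) and *Pigb* (3.82, adjusted p = 2.23e-04) were the other genes called higher there by edgeR. The libraries overlapped for *Dnase1*, with 0 to 113 CPM in the sham + v and 28.8 to 876 CPM in the OVX + RAL libraries, the highest being OVX + RAL 20, and its exact permutation p was 0.0714. Without OVX + RAL 20 its log2 fold change was 1.61 and its adjusted p 0.612 in edgeR. *Pigb*, an enzyme of the GPI anchor pathway, had 0 to 35.8 CPM in the sham + v and 78.2 to 224 CPM in the OVX + RAL libraries, without overlap, and stayed called whichever library was left out (adjusted p at most 0.00784 in edgeR). *mt-Nd5* (−0.90, adjusted p = 0.0157) joined *mt-Nd6* on the lower side, and was called in only 3 of the 10 fits that left out a library. With the default filter of edgeR 2 of 9067 genes were called (0.0221%).

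The summed level of the 44 interferon genes was 2727, 2568, 1508, 1906 and 1579 CPM in sham + v libraries 1 to 5 and 2550, 8602, 3659, 3783 and 2451 CPM in OVX + RAL libraries 16 to 20. OVX + RAL 17 was far above the rest, 18 and 19 were above all sham + v libraries, and 16 and 20 lay within their range. Of the 43 listed genes with a count, 39 had a higher mean CPM in the OVX + RAL group, against 7314 of all 14790 genes, and 33 did when library 17 was left out. Library 17 was the highest of the 10 for 31 of the 43. The summed level of the 27 macrophage genes was 377 to 1353 CPM for sham + v and 614 to 894 CPM for OVX + RAL, and its part in the interferon genes was not tested.

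A pair of promoters of these genes are shown, read from RefSeq in the build GRCm38.p6, because they hold the core of the interferon response element, a pair of GAAA separated by 2 bases of any kind, searched on both strands and marked by capitals. The windows of 300 bases around gene starts matched 33 of the listed genes, and 19 of these (57.6%) held the motif, against 3.99% of all 27025 genes with such a window. The list was made of interferon-stimulated genes, so this share describes the list and not a difference between the groups. Of its tested members 4 were matched and 2 held the motif. A match describes the letters and not a bound site. Matches may overlap, as in *Bst2*.
Ifit3, chr19:34583365-34583424, plus strand: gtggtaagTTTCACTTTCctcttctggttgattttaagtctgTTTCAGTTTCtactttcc
Bst2, chr8:71537551-71537610, minus strand: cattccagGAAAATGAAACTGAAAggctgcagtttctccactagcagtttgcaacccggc

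**Figure D4:**
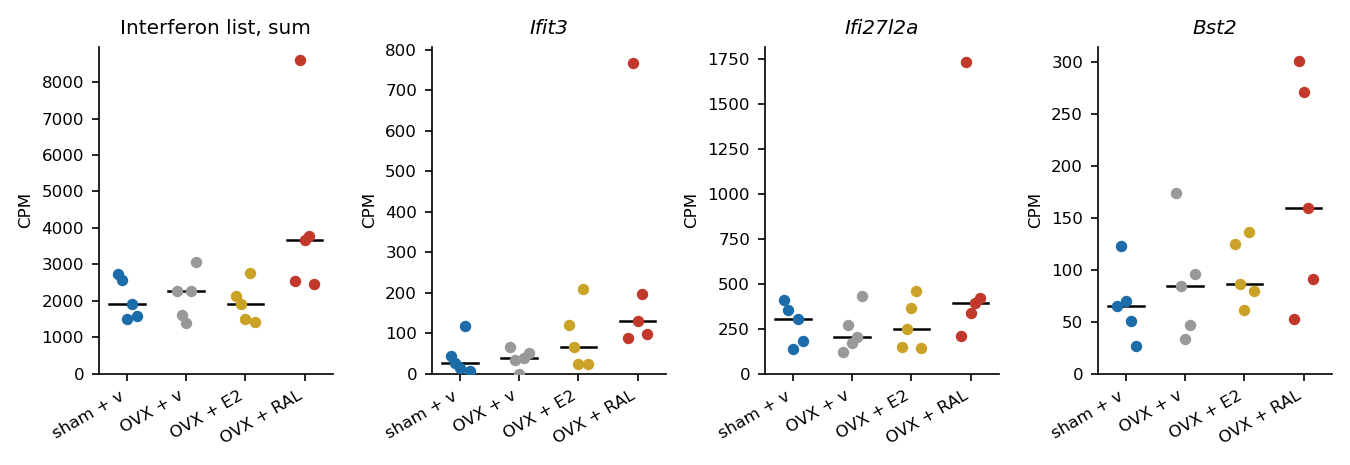
Summed CPM of the interferon list and CPM of *Ifit3*, *Ifi27l2a* and *Bst2* (vertical axes) in the 4 groups of 5 libraries; points are libraries and lines are medians. The highest point of each panel is OVX + RAL 17, which reaches 8602 CPM in the sum.

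Raloxifene acts on estrogen receptors, and their transcripts had no count in most libraries. *Esr1* had counts in 1 of 5 sham + v libraries, at 46.2 CPM, and in 1 of 5 OVX + RAL libraries, at 3.36 CPM. *Esr2* had a count in 1 sham + v library, at 2.10 CPM, and none in the OVX + RAL group. A level of 3 counts makes 1.44 to 1.99 CPM, and these limits cover counting error only. *Pgr*, the progesterone receptor and a classical target, had no count in the sham + v libraries and 16, 1 and 27 counts in OVX + RAL 16, 17 and 20. Its exact permutation p on log2(CPM + 1) was 0.167. Without the drug it had 0, 48, 0, 85 and 20 counts in the OVX + v libraries. The OVX + v mean was 17.2 CPM, against 4.35 CPM for OVX + RAL and 1.82 CPM for OVX + E2. Of the 6 coregulators and receptors tested, *Crebbp* had an unadjusted p under 0.05 and none was called, with a median log2 fold change of −0.03. Of 8 estrogen target genes tested, 7 were above 0, with a median of 0.07. The most abundant, *Hspb1*, had 1398 ± 512 and 1889 ± 467 CPM (SD, n = 5 each). The summed level of the list, 1 of 36 measures computed per library, was 2783 to 3422 CPM in the sham + v and 3459 to 4106 CPM in the OVX + RAL libraries, and reached 2572 to 5604 CPM in the OVX + v group. Its exact permutation p was 0.00794, and 0.286 after Benjamini-Hochberg adjustment over the 36 measures. *Hspb1*, whose groups overlapped, took a large part of the mean sums of 3074 CPM for sham + v and 3769 CPM for OVX + RAL. Of the 23 listed genes with a count, 15 had a higher and 8 a lower mean CPM in the OVX + RAL group.

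Among the genes of otoconia and of the sensory epithelium no difference passed the test. Of 10 tested genes of the otoconia and otolithic membrane, none was called and 3 were above 0, with a median log2 fold change of −0.20. *Otog*, which encodes otogelin of the membrane, had 2782 ± 1096 and 2472 ± 984 CPM (SD, n = 5 each). *Atp2b2*, the calcium pump of the hair bundle, was at 126, 272, 202, 150 and 149 CPM in the sham + v and 71.0, 81.9, 98.7, 51.9 and 119 CPM in the OVX + RAL libraries. These did not overlap, and the log2 fold change was −1.09 ± 0.43 (SE) with an adjusted p of 0.650 in edgeR. Of 17 hair cell genes tested, 2 were above 0, with a median of −0.35, and 1, *Pou4f3*, a transcription factor of hair cell survival, had an unadjusted p under 0.05. Fewer cells of a type and less RNA per cell cannot be told apart in such samples. *Myo6*, an unconventional myosin of hair cells, had 364 ± 141 and 438 ± 108 CPM (SD, n = 5 each).

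Among 14 supporting cell and Notch genes 7 were above 0 (median −0.02), and among 9 genes of dark cell ion transport 2 were (median −0.03). In 12 genes of calcium handling the median was −0.15. *Atp2a2*, the calcium pump of the endoplasmic reticulum, had 161 ± 41.5 and 293 ± 77.2 CPM (SD, n = 5 each), with a log2 fold change of 0.87 ± 0.34 (SE), and was not called (adjusted p = 0.636 in edgeR). None of these lists held a called gene.

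**Figure D5:**
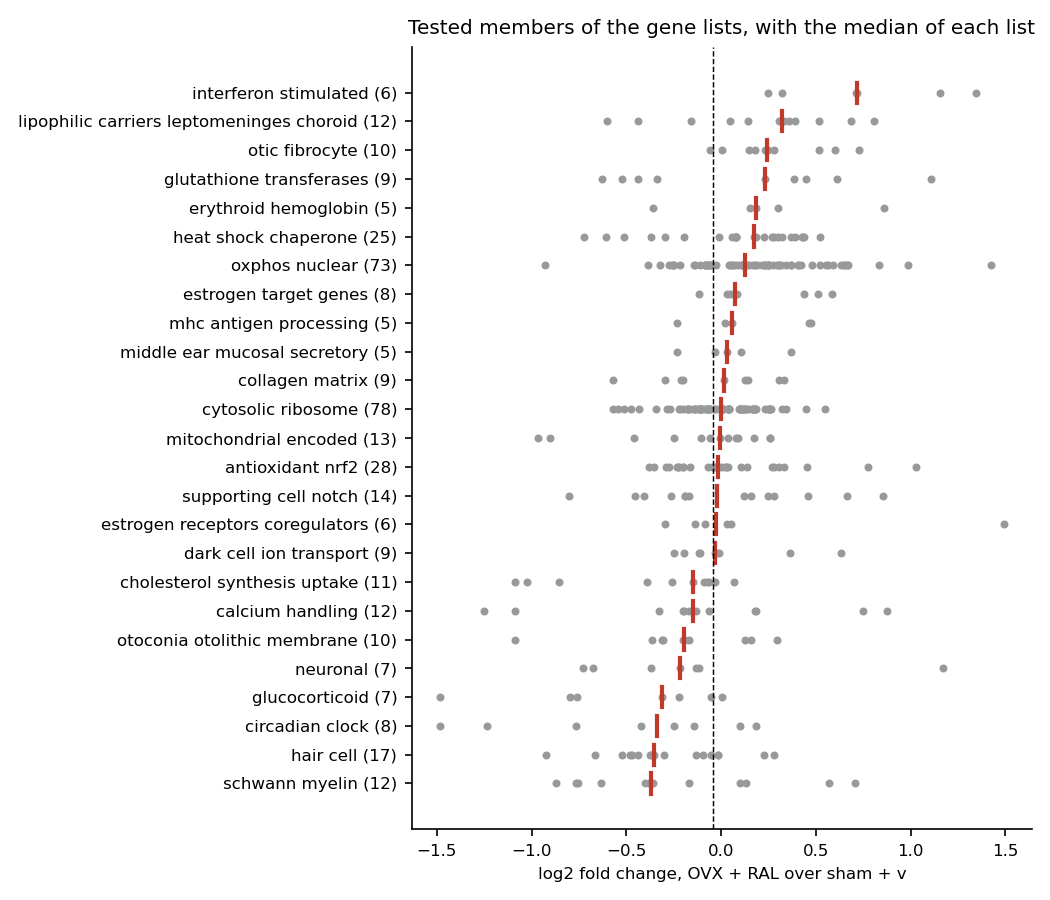
Log2 fold change of OVX + RAL over sham + v (horizontal axis) for the tested members (grey points) of the gene lists with at least 5 tested members, whose number is in brackets; red ticks are list medians and the dashed line is the median of all tested genes, −0.05. The highest median is that of the interferon list, 0.71, and the lowest that of the Schwann cell and myelin list, −0.37.

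Genes of the circadian clock and its outputs had a log2 fold change below 0 in 6 of the 8 tested, with a median of −0.34, and 3 had an unadjusted p under 0.05, all lower, against 3.17% of all tested genes. Of the 18 listed genes with a count, 6 had a higher and 12 a lower mean CPM in the OVX + RAL group. *Hlf*, a clock-driven transcription factor, was at 90.1, 134, 118, 204 and 279 CPM in the sham + v and 83.8, 56.6, 139, 26.8 and 44.7 CPM in the OVX + RAL libraries. *Per1*, a core repressor of the clock, had 97.9 ± 64.6 and 35.4 ± 24.5 CPM (SD, n = 5 each). Both overlapped between the groups and had an adjusted p of 0.636 in edgeR. *Dbp*, another output gene, was under the filter and picked with its values in view, with 170, 398, 397, 229 and 302 counts in the sham + v and 13, 41, 249, 0 and 107 counts in the OVX + RAL libraries. The hour at which each mouse was killed is not given in the sources used here, and its part was not tested. In the glucocorticoid list, which also holds *Per1*, 1 of 7 tested genes was above 0 (median −0.31).

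In the list of cholesterol synthesis and uptake 1 of 11 tested genes was above 0, with a median of −0.15. Over all 32 listed genes, those under the filter included, 14 had a higher and 18 a lower mean CPM in the OVX + RAL group, against 7314 higher of 14790 genes. *Srebf2*, the main activator of cholesterol synthesis, had 228 ± 58.5 and 109 ± 76.1 CPM (SD, n = 5 each), a log2 fold change of −1.09 ± 0.40 (SE) and an adjusted p of 0.636 in edgeR. Chaperones and heat shock proteins were above 0 in 18 of 25 tested genes, with a median of 0.17. *Hspa5*, the chaperone BiP of the endoplasmic reticulum, was at 1245, 1346, 891, 1085 and 1215 CPM in the sham + v and at 1606, 1589, 1736, 1628 and 1740 CPM in the OVX + RAL libraries. The OVX + RAL libraries lay close together and all above the sham + v libraries, with a log2 fold change of 0.52 ± 0.20 (SE). The adjusted p in edgeR was 0.636.

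Nuclear genes of oxidative phosphorylation were above 0 in 52 of 73 tested, with a median of 0.12, and 5 had an unadjusted p under 0.05, all higher, against 2.47% of all tested genes. The groups did not overlap for 2 of the 73, against 0.374% of all tested genes. These were *Uqcrq* and *Ndufa8*, a complex I subunit, with 40.1 ± 21.9 and 109 ± 32.9 CPM (SD, n = 5 each). Of 78 genes of the cytosolic ribosome 39 were above 0 and 39 below. Of 28 antioxidant and Nrf2 genes 13 were above 0 (median −0.02), and of 9 glutathione transferases 5 (median 0.23). The summed level of all listed glutathione transferases went the other way, with 1827 ± 193 and 1583 ± 225 CPM (SD, n = 5 each). None of these genes was called.

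*Gstp1* and *Gstp2*, glutathione transferases with near-identical sequence, were under the filter since each was listed at 0 in some libraries. *Gstp1* was at 431, 0, 371, 0 and 703 CPM in the sham + v and 109, 213, 0, 341 and 385 CPM in the OVX + RAL libraries. *Gstp2* was high where *Gstp1* was at or near its lowest: 596 and 376 CPM in sham + v 2 and 4, and 280 and 422 CPM in OVX + RAL 16 and 18, against at most 70.3 CPM in the other 6. Reads of the pair may be split between them by the counting, so their sum is the safer value. It was 512 ± 171 (SD, n = 5) and 352 ± 81.6 CPM (SD, n = 5), with an exact permutation p of 0.111 on the log2 scale. *Amd1* had 945 ± 341 and 1054 ± 318 CPM (SD, n = 5 each), and *Slc35b1* had 63.6 ± 29.3 and 95.6 ± 10.2 CPM (SD, n = 5 each). *Stard8* had 21.4 ± 12.5 and 37.2 ± 22.9 CPM (SD, n = 5 each). None of the 3 was called. *Amd2*, a near copy of *Amd1*, had 1029 counts in sham + v 4 and 331 in OVX + RAL 20 and none in the other 8 libraries. Under the filter, *Cog5* had 0 to 141 counts in the sham + v and 4 to 327 in the OVX + RAL libraries, with an exact permutation p of 0.175. *Mettl16*, *Orc2*, *Wdr41*, *Sra1* and *Greb1* were under it too, with exact permutation p between 0.190 and 0.929.

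Markers of neighbouring tissues were also listed. Schwann cell and myelin genes had the lowest median of the lists with at least 5 tested members, −0.37, with 4 of 12 above 0. Their summed level had the higher mean in the OVX + RAL group, 15242 against 11412 CPM, with 22302 and 23252 CPM in OVX + RAL 16 and 17 and 8978 to 14237 CPM in the other 8. *S100b* of the same list was at 19637 and 19944 CPM in OVX + RAL 16 and 17 and 5789 to 11427 CPM in the other 8 libraries. Otic fibrocyte genes were above 0 in 9 of 10 tested, with a median of 0.24. *Fxyd6*, a regulator of the sodium pump, did not overlap between the groups, with 542 ± 89.2 and 823 ± 40.2 CPM (SD, n = 5 each). The summed fibrocyte level was 18048 CPM in sham + v 1 and 20534 CPM in OVX + RAL 16, and 9457 to 15178 CPM in the other 8.

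Genes of collagen and matrix (9 tested, median 0.01), antigen processing (5 tested, 0.06), hemoglobin and heme (5 tested, 0.18), neurons (7 tested, −0.21) and mucosal secretion (5 tested, 0.03) held no called gene. Lists of melanocyte genes, bone matrix, endothelium, immediate early genes and skeletal muscle had 2 or 3 tested members, macrophages 1 and osteoclasts 0. Of the 16 osteoclast genes 5 had no count in the 10 libraries.

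A few genes had at least 10 counts in every library of one group and at most 3 in each library of the other. A sham + v library detected 8651 to 10625 genes and an OVX + RAL library 10103 to 10290, and the part of this in the tally was not tested. Of 5095 genes with at least 10 counts in all OVX + RAL libraries, 4 (0.0785%) had at most 3 in each sham + v library. These were *Tti1*, *Snx10*, *Med29* and *Fstl4*. *Tti1*, which supports the folding of large kinases, had 41.0 ± 34.6 CPM (SD, n = 5) in the OVX + RAL group. This mean was 24.2-fold above the level of 3 counts averaged over the sham + v libraries, 1.70 CPM. The bounds for the others lay between 10.4-fold and 17.3-fold. All 4 also had counts in some OVX + v and OVX + E2 libraries, such as *Med29*, with 56, 78, 2, 84 and 14 counts in the OVX + v libraries. In the other direction, 1 of 4205 genes (0.0238%) met the rule. It was *Crh*, the corticotropin-releasing hormone, with 72, 15, 18, 52 and 11 counts in the sham + v libraries and 0 in each OVX + RAL library. The sham + v mean was 11.3-fold above the level of 3 counts averaged over the OVX + RAL libraries, 1.59 CPM. It had 29, 1 and 17 counts in 3 of the OVX + v libraries and 34 in 1 OVX + E2 library.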

How the data were processed

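RNA of mouse utricles had been sequenced from 3′ ends (QuantSeq, 1 ng of total RNA). As the study's methods state, the authors trimmed the reads, mapped them to GRCm39 and counted them in CLC Genomics Workbench, whose version is not given in the sources used here. The deposited total counts are raw counts per gene, without normalization, and were the values used. Deposited CPM, TPM, RPKM, fold changes and p-values of the authors' comparisons were not used, and the tables hold 0 columns of other samples. Libraries were grouped by their labels.

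Genes with at least 10 counts in each of the 10 libraries were fitted with the robust quasi-likelihood method of edgeR 4.0.16 (R 4.3.3), with the library total as size and no TMM factor. P-values were adjusted by Benjamini-Hochberg over all 3475 genes, with a threshold of 0.05. Each standard error is the absolute log2 fold change divided by the root of F. Exact permutation tests (scipy 1.17.1) were two-sided over 252 groupings. The common biological coefficient of variation was 0.519. Alternatives were DESeq2 1.42.0, limma 3.58.1 on log2(CPM + 1), TMM, other edgeR fits, other filters, all 20 libraries, and leaving out each library.

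Named were the 10 genes with the smallest p in each direction, up to 3 genes by p and the most abundant of each of 32 lists, a set of genes fixed by name (among them those the study names, with *Orc2* in place of its *Orc8*) and those with at least 10 counts in every library of one group and at most 3 in each of the other. *Ifit3*, *Dnase1*, *Pigb*, *Dbp*, the genes whose libraries did not overlap and others outside this rule were picked with their values in view. The members and lists were chosen with earlier results of these data known. Of 20 replicate pairs, 0 had identical counts. The edgeR step was tested on simulated data of 3475 genes, where it made 0 calls without change. Intervals and floors cover counting error only. The sources used here name no molecular identifiers. A few items are not reported here.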

Additional observations from a re-analysis of the deposited data

Results flagged for a closer look

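In groups of 5 libraries, 118 sets of values were examined for a library far from its group by Dixon's ratio, of which chance would pick about 5.9, and 8 were picked. OVX + RAL 17 was far above its group for *Eif2ak2*, at 218 CPM, for *Scaf8*, at 55.5 CPM, and for the summed interferon genes, at 8602 CPM. OVX + RAL 19 was far above for *Crebbp*, at 293 CPM, and for the summed genes of mucosal secretion, at 2779 CPM. OVX + RAL 18 was far above for *Liph*, at 58.7 CPM. Sham + v 1 was far above for the summed lipophilic carrier genes, at 112092 CPM, and for the summed otic fibrocyte genes, at 18048 CPM.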

How the results depend on the processing

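The count of 1 called gene depended on the method. It was 0 with the non-robust edgeR fit, the legacy quasi-likelihood fit and DESeq2, 5 with a filter on 10 summed counts or with no filter, 2 with the default filter of edgeR, 4 when sham + v 1 and OVX + RAL 16 were left out together (chosen after seeing the data), and 0 to 5 when single libraries were left out, the highest without sham + v 1. TMM factors, limma, the filter at 50 counts and the fit of all 20 libraries gave 1. *mt-Nd6* kept its direction in all 21 alternative fits, and its adjusted p lay between 1.24e-05 and 0.188. The count of 32 genes without overlap was 30 with TMM, 96 with the summed filter or none, 79 with the default filter, 20 with at least 50 counts, 127 without sham + v 1 and OVX + RAL 16 and 55 to 78 with single libraries left out, which follows in part from the number of genes and libraries in each. Of 31 list medians 15 changed sign in at least 1 alternative, those of supporting cell, dark cell, estrogen receptor and target, matrix, antioxidant and glutathione transferase genes among them, while the medians of interferon (0.43 to 1.40), hair cell (−0.48 to −0.16) and clock genes (−0.68 to −0.27) kept theirs. None of the 20 lead genes changed direction. TMM moved the share of genes above 0 from 45.6% to 48.5%. No paired analysis was possible because the groups share no replicate number. The filter of 10 counts in every library sets the number of genes tested, which was 3475 here and 9067 or 13883 with the looser filters. Under the summed filter (library left out in turn, chosen after seeing the data) *Ifit3* was lost without OVX + RAL 17, *Dnase1* without OVX + RAL 20 and *mt-Nd6* without sham + v 2 (adjusted p = 0.0531) or OVX + RAL 17 (adjusted p = 0.0767). The causes of these differences were not tested.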
